A study of Mus musculus with 17 samples.

Results

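Skin of C57/BL6j mice taken 3 days after injury with ionizing radiation was set against control skin of the same strain at day 0, which had received no radiation. The comparison used 5 of the 17 RNA-seq libraries, 3 of irradiated day-3 skin (replicates 1, 2 and 3) and 2 of control day-0 skin (replicates 1 and 2). It covered the 14095 of 34140 genes with an FPKM (fragments relative to gene length and sequencing depth) of at least 1 in at least 2 of these 5 libraries. The labels do not say whether day-0 skin was taken before wounding or straight after it, and the dose and the kind of wound are not among them. No irradiated day-0 skin is among the groups, so the effects of injury and of radiation cannot be told apart in this comparison. The 2 libraries of control day-3 skin (replicates 1 and 3), which was injured without radiation, are therefore given beside it. Their own change from day 0 uses the same 2 day-0 libraries, and the direct comparison of irradiated with control day-3 skin tests how far both changes differ. Nothing in the labels says that the libraries of a group came from separate animals. The p-values measure the spread between libraries of a group, pooled over all groups of the 17 libraries, and that spread may be technical.

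A skin wound is known to set off clotting, an influx of neutrophils and then of monocytes and macrophages, and the migration of keratinocytes that leave their normal differentiation and make stress keratins. Fibroblasts lay down a provisional matrix under the influence of growth factors, among them TGF-β1, which signals through its receptors and the SMAD proteins. Ionizing radiation breaks DNA and activates the p53 protein and its target genes for growth arrest and cell death, and fragments of DNA or RNA in the cytosol can start interferon signalling.

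In irradiated day-3 skin, 37 of 37 tested interferon-induced genes, 20 of 28 wound-edge keratinocyte genes and 14 of 23 neutrophil and monocyte chemokines and receptors were higher than in control day-0 skin and none lower. Of mature skeletal muscle markers 20 of 21 were lower, of mitochondrially encoded genes 12 of 12 and of red blood cell markers 5 of 5. Some of these red blood cell markers passed the filter on FPKM only through the day-0 libraries. Of the 14095 genes tested, 7063 passed (50.1%), 4582 higher (32.5%) and 2481 lower (17.6%) in irradiated day-3 skin, at a Benjamini-Hochberg adjusted p under 0.05 in limma. With a log2 fold change of at least 1 as well, 1367 genes were higher (9.7%) and 707 lower (5.02%). All 3 irradiated libraries lay on one side of both day-0 libraries in 9692 genes (68.8%). These shares are the background for every gene group below. In control day-3 against control day-0 skin, 5839 of the same genes passed (41.4%), 3914 higher (27.8%) and 1925 lower (13.7%), but 2411 higher and 2985 lower with median-of-ratios scaling and 2644 and 2880 in quantile-normalized values. Between irradiated and control day-3 skin 284 genes passed (2.01%), 244 higher (1.73%) and 40 lower (0.284%) with irradiation, but 652 higher and 582 lower when libraries were weighted by quality. The count of 284 was 28 without control day-3 replicate 3, 137 without control day-3 replicate 1, 162 without irradiated replicate 1 and 163 without irradiated replicate 2, and the count for control day 3 against day 0 was 3487 without control day-3 replicate 1. All changes are log2 fold changes of FPKM + 1, with the standard error (SE) for many of the named genes. The median change over all tested genes was 0.14.

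The fragment totals to which FPKM were scaled, worked out from the FPKM of single fragments, were 29278323 to 30797409 for irradiated day-3 libraries, 29379605 and 29650137 for control day-3 libraries, and 25440773 and 29835196 for control day-0 libraries. Mitochondrially encoded genes took 8.69% to 9.28% of summed FPKM in irradiated day-3 skin, 9.99% and 12.6% in control day-3 skin, and 31.8% and 21.7% in day-0 replicates 1 and 2. The share of calls in each direction depended on the scaling. Median-of-ratios scaling gave 3355 genes higher and 3526 lower, quantile normalization 3260 higher and 3661 lower, and FPKM rescaled to nuclear genes 5410 higher and 1669 lower, with the median of all genes at 0.27 in the last. The 2 day-0 libraries also differed from each other. Summed FPKM of 28 collagen genes was 2726, 3763 and 2776 in irradiated replicates 1, 2 and 3, against 1138 and 3319 in day-0 replicates 1 and 2, and fibroblast markers summed to 2914, 4298 and 3182, against 1677 and 4567. Counts of list members called against day 0 are therefore followed below by their values without day-0 replicate 1 and without day-0 replicate 2. Counts of list members called between the day-3 groups use all libraries and were not redone with 1 left out. Over all genes, the calls of that comparison fell most without control day-3 replicate 3, so these list counts may rest on it. In bulk tissue, fewer cells of a type and less RNA per cell cannot be told apart.

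**Figure D1:**
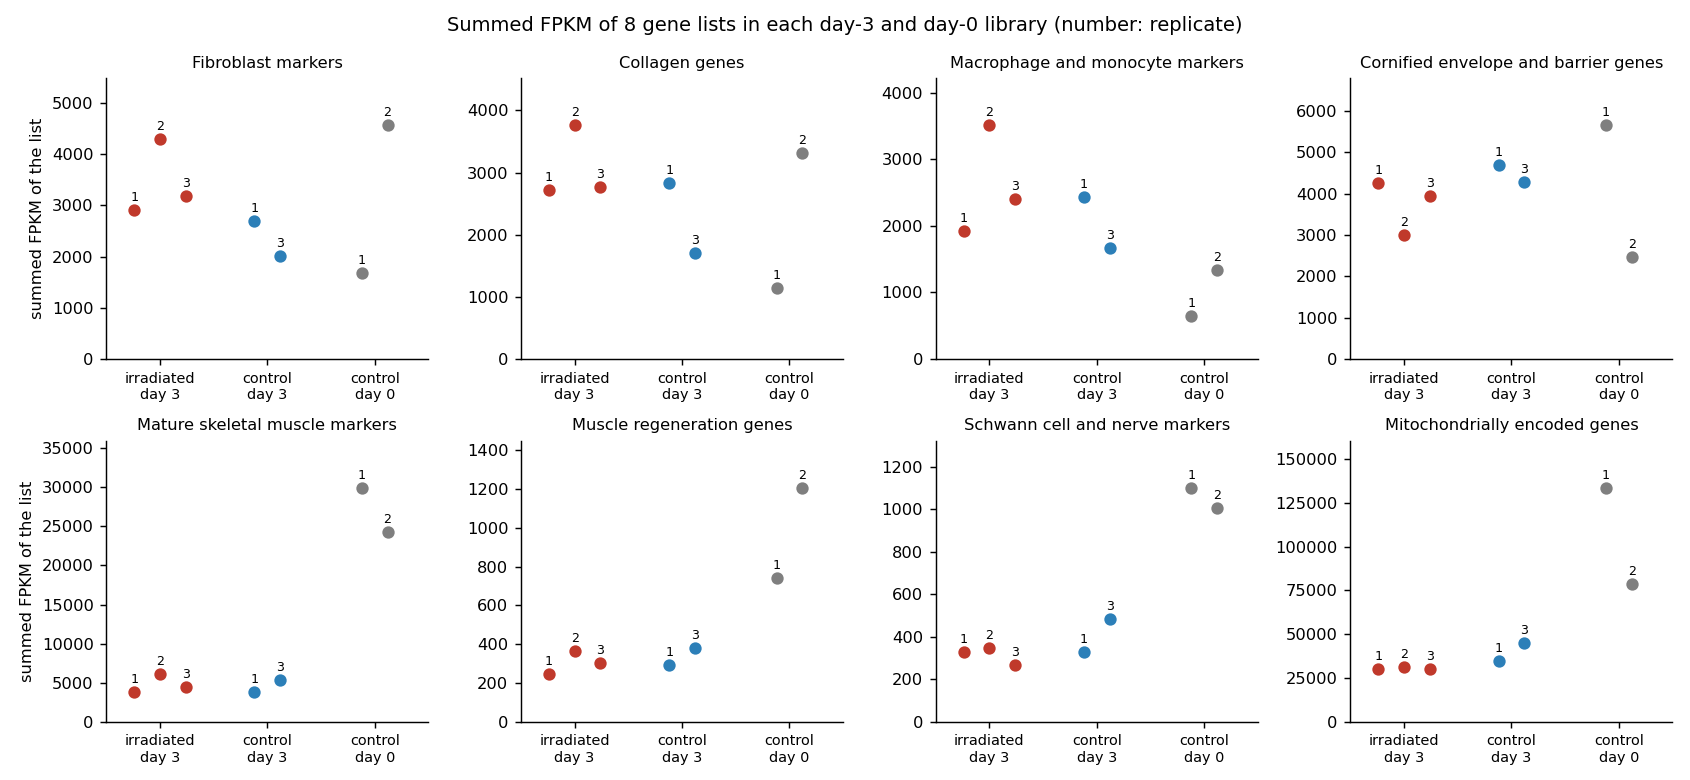
Summed FPKM (y axis, from 0) of 8 gene lists in the 3 irradiated day-3, 2 control day-3 and 2 control day-0 libraries, with the replicate number above each point. Day-0 replicates 1 and 2 lie far apart for fibroblast, collagen and barrier genes, while both lie above every day-3 library for muscle, nerve and mitochondrial genes.

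Epidermal genes were prominent among the largest rises. Of 29 wound-edge keratinocyte genes, which mark keratinocytes that migrate and proliferate after injury, 28 passed the filter on low values, and 20 were higher and none lower, with a median of 2.38 (18 higher without day-0 replicate 1 and 17 without replicate 2). Promoter windows of the cornified envelope genes Sprr1b and Sprr2d are shown because both genes were among the 15 largest rises and both windows hold TGANTCA, the core letters that AP-1 factors such as JUN and FOS are known to bind. The windows run from 250 bases before to 50 after the RefSeq gene start (GRCm38.p6, 5′ to 3′ on the gene's strand), with the matching letters in capitals. Sprr1b lies on the minus strand at chr3:92438730-92439029 and its match starts at position -111 from the gene start, and Sprr2d lies on the plus strand at chr3:92338890-92339189 with its match at -193.
Sprr1b: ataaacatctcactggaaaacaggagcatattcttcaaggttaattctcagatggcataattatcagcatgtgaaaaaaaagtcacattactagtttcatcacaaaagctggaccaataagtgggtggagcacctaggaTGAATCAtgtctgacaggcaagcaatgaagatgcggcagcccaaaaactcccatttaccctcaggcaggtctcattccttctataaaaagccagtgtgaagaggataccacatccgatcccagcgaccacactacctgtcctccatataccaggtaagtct
Sprr2d: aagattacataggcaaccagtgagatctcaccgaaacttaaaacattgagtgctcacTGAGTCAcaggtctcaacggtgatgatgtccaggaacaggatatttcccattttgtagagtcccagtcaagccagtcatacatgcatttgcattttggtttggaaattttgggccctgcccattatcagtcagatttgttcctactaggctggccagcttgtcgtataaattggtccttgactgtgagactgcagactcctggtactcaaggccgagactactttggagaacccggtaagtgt
Searched on both strands, TGANTCA occurred in 8.97% of all 27025 RefSeq mouse promoter windows, in 7.12% of the windows of tested genes, in 11.1% of the 938 windows of genes higher by at least 1, and in 9 of the 19 wound-edge genes with a window (47.4%). A match describes the letters and does not show binding. Windows were looked up by symbol, and those of Krt6a, Krt6b and Krt16 were not among the ones used here.

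Krt6b, a stress keratin of injured and hyperproliferative epidermis (chr15:101676034-101680289, minus strand), was at 3304, 2274 and 2958 FPKM in irradiated replicates 1, 2 and 3, at 3630 and 3015 in control day-3 skin, and at 36.4 and 13.6 in control day-0 skin. Every day-3 library was far above both day-0 libraries, and irradiated replicate 2 was the lowest of the day-3 libraries. The change from day 0 was 6.91 (SE 0.54, adjusted p = 1.1e-05) in irradiated skin and 7.15 in control day-3 skin, and the 2 day-3 groups differed by -0.23 (SE 0.54, adjusted p = 0.91). Its partner keratin Krt16 was at 3225, 2068 and 2940 FPKM, against 94.4 and 24.6 at day 0, a rise of 5.77 (SE 0.62, adjusted p = 3.3e-05). Krt6a was at 2747, 1786 and 2578, against 112 and 56.4, a rise of 4.86 (SE 0.50). Reads of Krt6a and Krt6b, which are near-identical in places, may be split between them by the counting, as may those of the Sprr2 and Stfa families.

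Genes for proteins of the cornified envelope and of cell contacts, among others, moved with these keratin genes. Sprr1b was at 861, 417 and 814 FPKM in irradiated skin, against 19.9 and 7.03 at day 0 (5.68, SE 0.59), and Sprr2d at 183, 109 and 222, against 4.10 and 1.33 (5.58, SE 1.02). The gap-junction proteins Gjb2 and Gjb6 (connexins 26 and 30) rose by 5.77 (SE 0.63) and 4.85 (SE 0.57), and Gjb2 was at 429, 195 and 366 FPKM, against 9.21 and 2.24. The kallikrein proteases Klk13 and Klk6, members of a family that cuts the contacts between corneocytes, rose by 4.89 and 4.81, and the envelope protein repetin (Rptn) by 4.85. Stfa2 and Stfa1, cysteine protease inhibitors of the stefin A family, rose by 6.46 and 5.05. The glutathione transferase Gsta4 rose by 4.90, and the EGF receptor ligand Areg by 3.12 (SE 0.61), with 26.6, 11.6 and 24.2 FPKM, against 2.72 and 0.524. In each of these genes the irradiated and day-0 libraries did not overlap, as in 68.8% of all tested genes. All but Areg were named by a rule for the largest rises that required this, so their separation adds no further evidence. None of the 28 tested wound-edge genes passed between irradiated and control day-3 skin, where 17 were higher than day 0 with a median of 2.42.

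Keratinocyte genes did not all go one way. Krt14, the keratin of the basal layer, was at 10181, 7247 and 9263 FPKM in irradiated skin, against 1099 and 600 at day 0, a rise of 3.44 (SE 0.47, adjusted p = 0.00013). Krt77, a keratin of resting interfollicular epidermis and sweat ducts, was at 110, 97.5 and 64.3, against 736 and 285, and fell by 2.36 (SE 0.50, adjusted p = 0.0023). Of 17 tested markers of basal and suprabasal keratinocytes, 7 were higher and 3 lower with a median of 0.41 (8 and 2 without day-0 replicate 1, 5 and 2 without replicate 2). Among 27 cornified envelope and barrier genes, 11 were higher, led by the late envelope protein Lce3c (3.41) and the transglutaminase Tgm3 (3.01), and 2 were lower (12 and 0 without day-0 replicate 1, 5 and 4 without replicate 2). One of the lower genes was Flg2, a filaggrin relative of the granular layer, at 12.1, 10.5 and 10.2 FPKM, against 79.7 and 32.1 (-2.12, adjusted p = 0.02), which did not pass without day-0 replicate 1. Krt2, a keratin usual in mouse skin, did not exceed 0.87 FPKM in the irradiated day-3 and day-0 libraries, and several other skin genes are listed near 0, so levels near 0 in this table are no evidence of absence.

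Defensins went in opposite directions. Of 14 tested antimicrobial peptide genes 7 were higher (3 without day-0 replicate 1 and 4 without replicate 2). The β-defensin Defb1 was at 120, 75.5 and 118 FPKM, against 25.6 and 11 (2.53, SE 0.42, adjusted p = 0.00048), and Defb14 rose by 2.99. Defb8 was listed at 0 in all 3 irradiated libraries, against 33.4 and 30.2 FPKM in day-0 and 2.61 and 2.47 in control day-3 skin. Defb8 passed the filter on low values only through the day-0 libraries, so the direction of its change from day 0 was fixed by the filter. S100a8 and S100a9, which form calprotectin in neutrophils and stressed keratinocytes, did not pass: S100a9 was at 1798, 1265 and 2068 FPKM, against 398 and 217 (2.51, SE 1.14, adjusted p = 0.085), and S100a8 at 607, 443 and 652, against 99.2 and 136 (2.26, SE 1.15, adjusted p = 0.12). All 3 irradiated libraries were above both day-0 libraries for each gene, and both genes passed in the fit of the compared groups only.

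**Figure D2:**
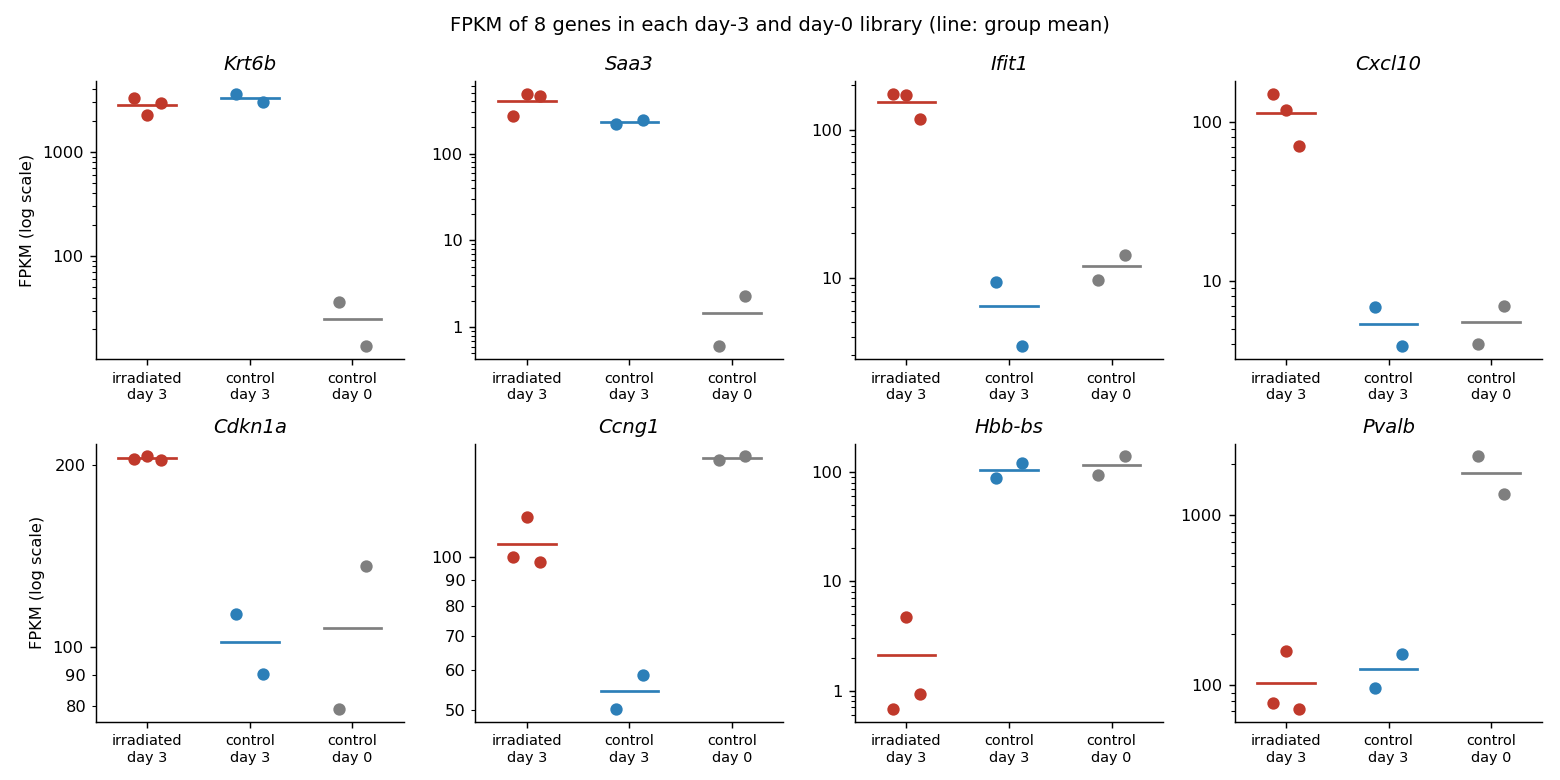
FPKM (log scale) of 8 genes in each irradiated day-3, control day-3 and control day-0 library, with a line at the group mean. Krt6b and Saa3 are high in both day-3 groups, Ifit1 and Cxcl10 are above 70 FPKM in irradiated day-3 skin and under 15 in both control groups, and Hbb-bs is under 5 in irradiated day-3 skin and above 88 in both control groups.

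Interferon-induced genes rose together. All 37 genes on the list passed the filter, 37 were higher in irradiated day-3 than in control day-0 skin and none lower, and the median was 2.54 (32 higher without day-0 replicate 1 and 37 without replicate 2). In control day-3 skin none of the 37 differed from day 0 in either direction at the adjusted threshold, with a median of -0.28. Of the 37, 35 were higher in irradiated than in control day-3 skin, with no library left out. The exceptions were Irf1, at 0.85 (adjusted p = 0.42), and Oas2, at 1.84 (adjusted p = 0.071). Summed FPKM of the list was 3122, 2852 and 1882 in irradiated replicates 1, 2 and 3, against 351.8 and 212.0 in control day-3 and 235.6 and 522.5 in control day-0 skin.

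Promoter windows are shown of Ifit1 and Rsad2, from this list, and of Cxcl10, a chemokine counted on another list below. The genes are among the strongest rises of their lists, and each window holds the core of the interferon-stimulated response element. This core is GAAA, 2 bases of any kind and GAAA again, which the interferon-activated factor ISGF3 and the IRF proteins are known to bind. The windows come from RefSeq (GRCm38.p6, 250 bases before to 50 after the gene start, 5′ to 3′ on the gene's strand), with each match, which may read as its reverse complement, in capitals. Ifit1 lies on the plus strand at chr19:34640639-34640938 and holds 2 matches, Rsad2 on the minus strand at chr12:26456403-26456702 with 1 match at -120, and Cxcl10 on the minus strand at chr5:92348840-92349139 with 1 match at -213.
Ifit1: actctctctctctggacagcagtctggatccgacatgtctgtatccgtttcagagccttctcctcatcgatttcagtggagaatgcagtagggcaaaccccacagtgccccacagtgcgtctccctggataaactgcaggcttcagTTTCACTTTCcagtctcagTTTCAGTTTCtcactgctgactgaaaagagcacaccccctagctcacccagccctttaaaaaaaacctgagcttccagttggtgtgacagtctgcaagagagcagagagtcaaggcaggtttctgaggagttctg
Rsad2: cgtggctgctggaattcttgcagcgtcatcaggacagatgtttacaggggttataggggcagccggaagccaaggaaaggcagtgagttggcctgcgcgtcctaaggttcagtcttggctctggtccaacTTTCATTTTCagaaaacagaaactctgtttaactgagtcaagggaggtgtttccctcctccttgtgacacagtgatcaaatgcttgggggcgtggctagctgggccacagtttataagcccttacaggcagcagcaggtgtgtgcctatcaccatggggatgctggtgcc
Cxcl10: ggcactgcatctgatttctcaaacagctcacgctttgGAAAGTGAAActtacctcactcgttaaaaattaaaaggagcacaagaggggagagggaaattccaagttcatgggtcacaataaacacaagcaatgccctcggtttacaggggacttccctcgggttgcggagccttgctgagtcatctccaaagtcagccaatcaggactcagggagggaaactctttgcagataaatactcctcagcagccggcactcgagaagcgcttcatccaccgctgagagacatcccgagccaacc
Searched on both strands, this core occurred in 3.99% of all RefSeq promoter windows, in 3.96% of the windows of tested genes, in 10.3% of those of genes higher by at least 1, and in 17 of the 28 interferon-induced genes with a window (60.7%). Among the wound-edge genes it occurred in 1 of 19 (5.26%), while TGANTCA occurred in 8 of the 28 interferon-induced windows (28.6%). The window of Ifit2, which rose more than Ifit1 and Rsad2, held no match to the interferon core.

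Mx1, of the interferon-induced Mx family of GTPases (chr16:97447035-97462907, minus strand), was at 87.0, 78.4 and 57.6 FPKM in irradiated skin, at 6.53 and 2.15 in control day-3 skin and at 2.11 and 4.33 in control day-0 skin. The 3 irradiated libraries stood apart from the 4 control libraries, which overlapped. Its rise from day 0 was 4.19 (SE 0.62, adjusted p = 0.00023), against 0.26 (adjusted p = 0.79) in control day-3 skin. Ifit1, which binds foreign RNA ends, was at 174, 170 and 118 FPKM, against 9.72 and 14.3 at day 0 (3.58, SE 0.59), and Ifit2 at 147, 126 and 90.3, against 4.66 and 12.5 (3.78, SE 0.51). Ifit3 rose by 3.42 (SE 0.63), though reads may be shared with its near copy Ifit3b. Rsad2, the antiviral enzyme viperin, was at 129, 98.1 and 69.3, against 6.97 and 7.27 (3.58, SE 0.66). In all 5 of these genes irradiated replicate 3 was the lowest of the irradiated libraries and remained above every control library.

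Other genes of the pathway were also higher. Irf7, the factor that drives later interferon genes, was at 149, 156 and 95.2 FPKM in irradiated skin, against 11 and 33.2 at day 0 (2.69, SE 0.60). The receptor chains Ifnar1 and Ifnar2 rose by 1.11 (SE 0.22, adjusted p = 0.0016) and 1.10. Of 12 interferon and receptor genes that the table lists, 5 passed the filter, and the genes of interferon α, β, γ and ε on the list did not exceed 1.43 FPKM in every day-3 and day-0 library. Ifnk, a keratinocyte interferon, was at 1.13, 0.297 and 0.212 FPKM, against 2.29 and 1.33, and fell by 0.89 (adjusted p = 0.005), a call lost without day-0 replicate 1 and in 3 other alternatives. It was at 0.0846 and 0.0419 in control day-3 skin. At the later times Ifit1 was at 10.2 and 52.4 FPKM in the 2 irradiated day-6 libraries and at 74.3, 30.3 and 48.5 in the 3 irradiated day-9 libraries.

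Of 24 chemokines that draw monocytes and neutrophils and their receptors, 23 passed the filter, 14 were higher and none lower, with a median of 1.86 (9 higher without day-0 replicate 1 and 12 without replicate 2), against 10 higher in control day-3 skin. Between the day-3 groups Ccl12 alone of the 23 passed. Ccl12, a mouse ligand of the monocyte receptor CCR2, was at 87.0, 108 and 98.3 FPKM in irradiated skin, 16.7 and 16.1 in control day-3 skin and 3.00 and 8.49 at day 0. Its 3 groups did not overlap: it rose by 4.0 (SE 0.30, adjusted p = 1.1e-05) from day 0 in irradiated skin and by 1.5 (adjusted p = 0.0037) in control day-3 skin, and the difference of 2.5 (SE 0.30) passed (adjusted p = 0.0019). Ccl2, the main CCR2 ligand, was at 197, 151 and 120 FPKM, against 26.1 and 18.3 in control day-3 and 10.2 and 18.8 in day-0 skin. It rose by 3.37 (SE 0.70, adjusted p = 0.0019) from day 0, whereas its difference of 2.75 between the day-3 groups did not pass (adjusted p = 0.076).

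Ccl8, another monocyte chemokine, reached 688, 770 and 935 FPKM, against 43.5 and 153 at day 0 (3.26, SE 0.52). The platelet-derived chemokines Ppbp and Pf4 rose by 4.47 (SE 0.91) and 3.08 (SE 0.50), and both were highest in irradiated replicate 2, where Ppbp was at 190 FPKM beside 37.5 and 68.4 in replicates 1 and 3, against 3.88 and 1.67 at day 0. Of the neutrophil chemokines, Cxcl5 was at 38.2, 73.2 and 88.0, against 2.22 and 1.55 (4.48, SE 1.42, adjusted p = 0.02), a call lost without either day-0 replicate, and Cxcl2 was at 148, 72.7 and 227, against 85.4 and 41.9, with overlapping groups (1.16, adjusted p = 0.36). Cxcl10, a ligand of CXCR3 on T cells and itself induced by interferon, was at 151, 118 and 70.5 FPKM, against 6.86 and 3.88 in control day-3 and 4.03 and 7.01 in day-0 skin, and rose by 4.10 (SE 0.73, adjusted p = 0.00071). Cxcl9, which binds the same receptor, rose by 3.10 but lost its call without day-0 replicate 1. Ccl27a, the skin chemokine of resting keratinocytes, was the 1 lower gene of 12 tested lymphocyte chemokines and receptors, at 2.31, 3.94 and 1.97, against 30.8 and 11.4 (-2.44, SE 0.44). The other 4 called genes of that list were higher (2 without day-0 replicate 1 and 5 without replicate 2).

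Several cytokines that keratinocytes can make rose, while the inflammatory cytokine Il1b did not pass. Which cells made them was not measured in this bulk tissue. Il33, an alarmin stored in the nuclei of barrier cells, was at 284, 202 and 279 FPKM in irradiated skin, 368 and 258 in control day-3 skin and 20.0 and 18.3 at day 0, a rise of 3.65 (SE 0.41, adjusted p = 4.4e-05). Tslp, which acts on dendritic cells, rose by 3.05, a call lost without day-0 replicate 1, and Il24, a keratinocyte cytokine of the IL-10 family, by 2.67. Il24 was at 0.312 and 0.363 FPKM at day 0 and passed the filter on low values only through the irradiated libraries. The direction of its change was therefore largely set by the filter. Il1b was at 173, 103 and 233 FPKM, against 124 and 71.6 (0.76, SE 1.03, adjusted p = 0.56) and overlapping groups. Of 25 tested cytokines and receptors 13 were higher and none lower (6 without day-0 replicate 1 and 10 without replicate 2). Gasdermin C (Gsdmc), of the family that forms pores in dying cells, was at 62.7, 49.97 and 62.1 FPKM, against 1.57 and 1.39 (4.57, SE 0.39), and Casp1, the inflammasome protease, rose by 1.28 (SE 0.18). Of 11 tested inflammasome and gasdermin genes 6 were higher and none lower (4 without day-0 replicate 1 and 6 without replicate 2).

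The largest change of any gene named here was in an acute-phase protein. Saa3, a serum amyloid made locally by macrophages and epithelium (chr7:46711998-46715700, minus strand), was at 269, 488 and 461 FPKM in irradiated skin, 220 and 242 in control day-3 skin and 0.603 and 2.30 at day 0. Both day-3 groups were far above day 0, by 7.42 (SE 1.37, adjusted p = 0.00093) and 6.65, and differed from each other by 0.76 (adjusted p = 0.89). The protease inhibitor Serpina3n was at 348, 377 and 473, against 40.7 and 58.4 (2.99, SE 0.59), and haptoglobin (Hp) at 959, 549 and 673, against 133 and 215 (2.06, SE 0.42). Of 24 tested acute-phase and complement genes 11 were higher and 2 lower (7 and 0 without day-0 replicate 1, 16 and 1 without replicate 2).

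Markers of immune cells gave a mixed picture by cell type. Of 26 macrophage and monocyte markers 15 were higher and none lower, with a median of 1.51 (8 without day-0 replicate 1 and 20 without replicate 2). Their summed FPKM was 1926, 3510 and 2399 in irradiated skin, against 649.3 and 1330 at day 0. In control day-3 skin 11 of these markers were higher than day 0 and none lower, with a median of 1.29. Between the day-3 groups 2 of the 26 passed, both higher in irradiated skin. Fcgr1, the high-affinity IgG receptor, was at 83.3, 96.7 and 64.8 FPKM, 28.1 and 15.6 in control day-3 skin and 4.59 and 12.8 at day 0. It rose by 3.22 (SE 0.42) from day 0 in irradiated skin and differed by 1.89 between the day-3 groups (SE 0.42, adjusted p = 0.04). Arg1, an arginase of repair macrophages that keratinocytes also make, rose by 3.56 (SE 0.59), and the lysosomal glycoprotein Cd68 by 2.5 (SE 0.41). Retnla, a resistin-like protein of alternatively activated macrophages and fat tissue, went the other way, at 9.77, 8.39 and 2.80 FPKM, against 81.2 and 240 (-4.28, SE 0.86, adjusted p = 0.0015), and was at 2.73 and 6.26 in control day-3 skin.

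Of 24 neutrophil markers 17 passed the filter and 6 were higher (1 without either day-0 replicate). The 7 that did not pass it were Ly6g, Cd177 and the granule genes Ngp, Camp, Ltf, Elane and Mpo, none above 2.85 FPKM in the day-3 and day-0 libraries. The receptor Csf3r was at 18, 21.7 and 21, against 3.88 and 3.50 (2.18, adjusted p = 0.012). Of 26 T and NK cell markers 7 passed the filter and 2 were higher (0 without day-0 replicate 1 and 3 without replicate 2), and the T cell receptor chains Cd3d, Cd3e and Cd3g stayed under 1 FPKM in the day-3 and day-0 libraries. B cell markers gave no call among 3 tested (1 higher without day-0 replicate 1 and 0 without replicate 2). Platelet markers gave 3 higher of 5 tested (2 without either day-0 replicate). Mast cell markers gave 6 higher and 1 lower of 10 (0 and 0 without day-0 replicate 1, 6 and 1 without replicate 2). Dendritic cell, Langerhans cell and class II markers summed to 359.9, 345.9 and 329.7 in irradiated skin, 907.2 and 609.7 in control day-3 skin and 363.6 and 500.1 at day 0, and 2 of 14 were higher and none lower (1 and 0 without day-0 replicate 1, 3 and 1 without replicate 2). The class II chain H2-Aa was at 58.5, 59.2 and 54.7 FPKM in irradiated skin, 174 and 119 in control day-3 skin and 61.2 and 87.5 at day 0, and passed in neither comparison of irradiated skin (-0.34 against day 0, adjusted p = 0.47).

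p53 target genes moved in both directions against day 0. Of 30 targets, all tested, 17 were higher and 5 lower with a median of 0.64 (16 and 4 without either day-0 replicate). In control day-3 skin 10 were higher and 7 lower with a median of 0.05. Between the day-3 groups, 10 were higher and none lower in irradiated skin, with no library left out. Dcxr, a carbonyl reductase (chr11:120725399-120727281, minus strand), was at 26.8, 31.7 and 27.2 FPKM in irradiated skin, 12.1 and 11.8 in control day-3 skin and 6.18 and 7.62 at day 0. Its 3 groups did not overlap, and it rose by 1.91 (SE 0.12, adjusted p = 5.8e-06) from day 0 and by 1.19 (SE 0.12, adjusted p = 0.0011) between the day-3 groups. The stress cytokine Gdf15 was low throughout, at 2.68, 2.42 and 1.99 FPKM, 0.901 and 0.656 in control day-3 skin and 0.233 and 0.489 at day 0 (1.31, SE 0.17, from day 0). Gdf15 passed the filter on low values only through the irradiated libraries. The direction of its change from day 0 was therefore largely set by the filter.

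Cdkn1a, which encodes the cell-cycle inhibitor p21, was at 204, 207 and 204 FPKM in irradiated skin, 114 and 90.5 in control day-3 skin and 79.1 and 136 at day 0. It was higher than day 0 by 0.97 (SE 0.21, adjusted p = 0.0024) in irradiated skin and differed by -0.03 (adjusted p = 0.92) from day 0 in control day-3 skin. Ccng1, cyclin G1, was at 100, 120 and 97.6 FPKM, against 156 and 158 at day 0, and fell by 0.57 (SE 0.14, adjusted p = 0.005), a call lost when FPKM were rescaled to nuclear genes. In control day-3 skin it was at 50.2 and 58.7, a fall of 1.51 from day 0, so irradiated skin lay between both control groups and was 0.95 above control day-3 skin (SE 0.14, adjusted p = 0.0042). Trp53inp1, a stress-induced partner of p53, was higher than day 0 by 0.74 in irradiated skin and lower by 0.74 in control day-3 skin. Bax, which opens the mitochondrial outer membrane, was higher by 0.95 in irradiated skin, against 0.02 in control day-3 skin. Mdm2, the ubiquitin ligase of p53, was at 21.5, 21.8 and 21, against 11.4 and 20.0 (0.48, adjusted p = 0.036), and its call was lost in 8 alternatives. Pmaip1, Ddit4 and Sesn2, targets that other stresses also induce, rose from day 0 by 2.64, 1.79 and 1.55 in irradiated skin and by 2.44, 1.61 and 0.98 in control day-3 skin. Gadd45a fell by 1.73, with 13, 10.4 and 13.3 FPKM, against 19.2 and 93.4, where the day-0 libraries differed widely.

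**Figure D3:**
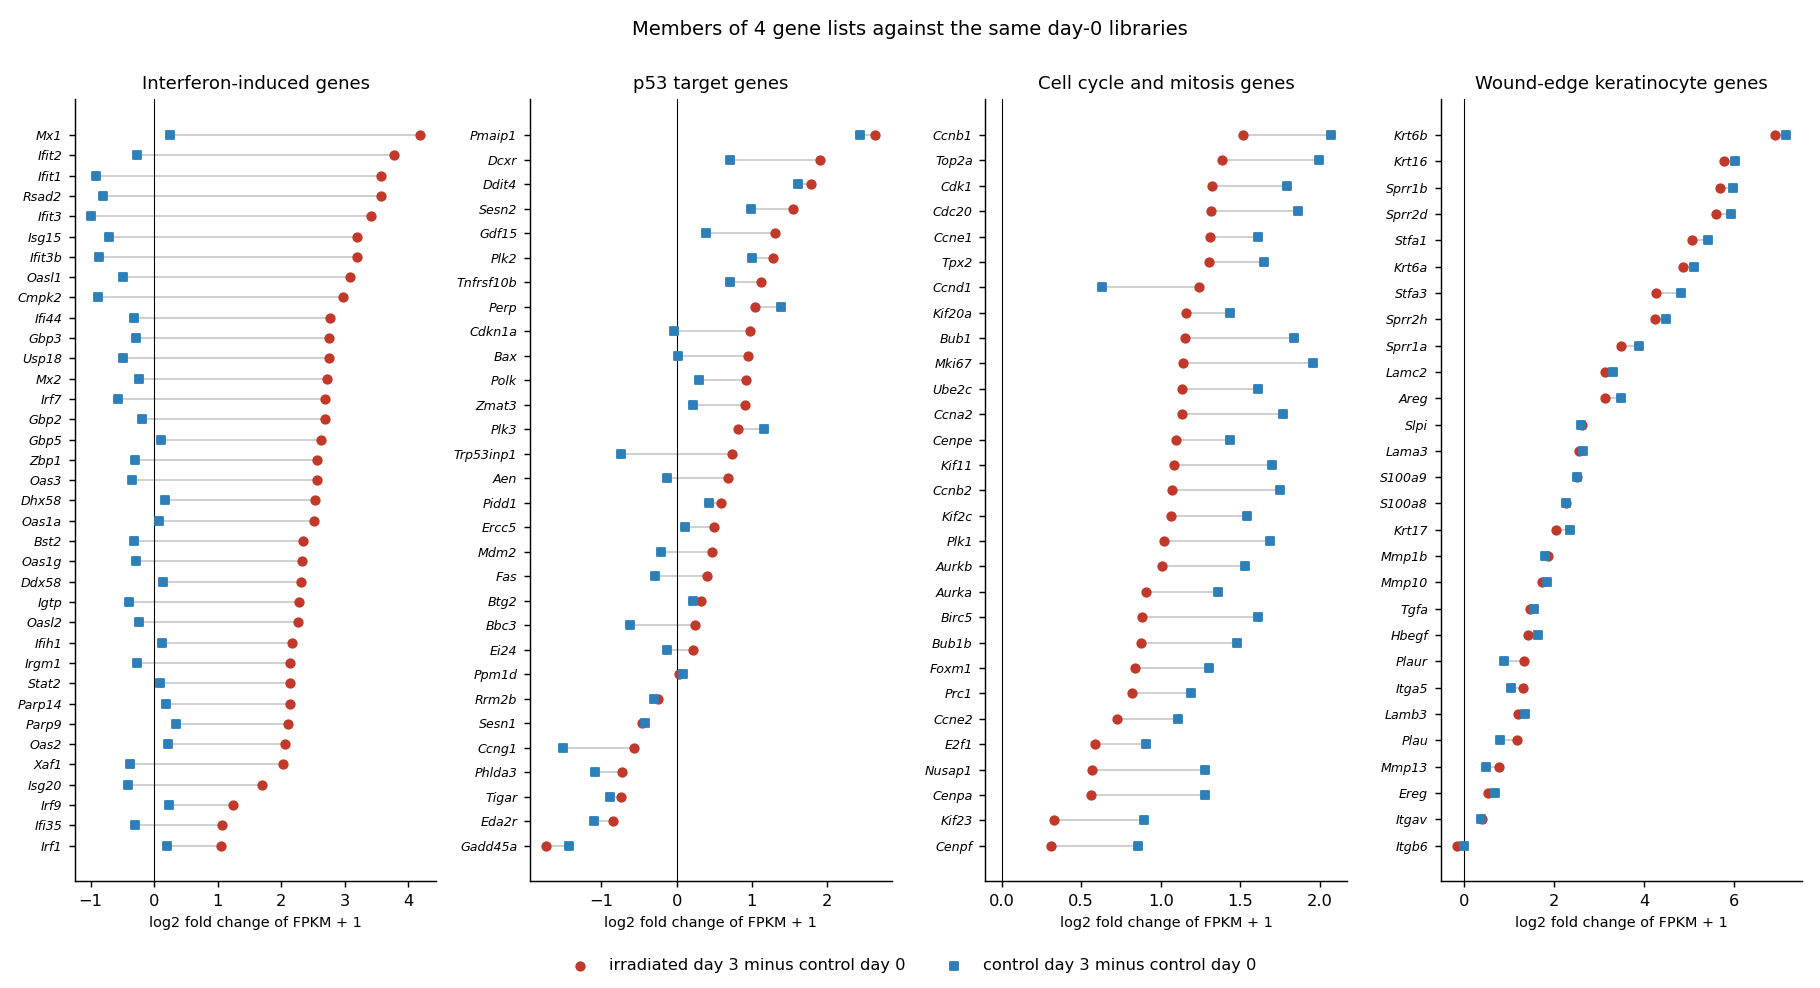
Log2 fold change of FPKM + 1 (x axis) of the tested members of 4 gene lists, all but 1 interferon-induced gene, for irradiated day 3 (red circles) and control day 3 (blue squares), both against the same 2 control day-0 libraries. Interferon-induced genes lie between 1.06 and 4.19 in irradiated skin and on both sides of 0 in control day-3 skin, cell cycle genes lie lower in irradiated than in control day-3 skin except Ccnd1, and wound-edge genes nearly coincide.

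Genes of cell division and DNA synthesis were higher than at day 0. Of 29 cell cycle and mitosis genes 28 were higher and none lower with a median of 1.07 (23 without day-0 replicate 1 and 29 without replicate 2), and the remaining gene, Cenpf, was at 0.31 (adjusted p = 0.082). In control day-3 skin 28 were higher, with a median of 1.54. Ccnb1, the mitotic cyclin B1, was at 11.5, 9.91 and 10.6 FPKM in irradiated skin, 16.1 and 16.0 in control day-3 skin and 2.58 and 3.61 at day 0. Irradiated skin lay between the other groups with no overlap, at 1.52 above day 0 (SE 0.17, adjusted p = 4.6e-05), but its difference of -0.55 from control day-3 skin did not pass (adjusted p = 0.17). The mitotic genes that did pass as lower in irradiated than in control day-3 skin were Cenpa (-0.72, adjusted p = 0.0071), Nusap1 (-0.71, adjusted p = 0.024) and Kif23 (-0.57, adjusted p = 0.021). All 24 tested replication genes were higher than day 0 (22 without day-0 replicate 1 and 24 without replicate 2), led by Mcm5 of the replicative helicase, at 15.8, 12 and 13.8 FPKM, against 2.25 and 4.10 (1.86, SE 0.20). In control day-3 skin 24 replication genes were higher as well, with a median of 1.34, against 1.04 in irradiated skin. Between the day-3 groups 1 replication gene was lower in irradiated skin and none higher. Of 24 tested DNA damage and repair genes 14 were higher and 2 lower (10 and 1 without day-0 replicate 1, 16 and 0 without replicate 2), with Pcna, the sliding clamp, at 59.9, 53.6 and 57.7, against 27.2 and 29.0 (1.0, SE 0.09). In control day-3 skin 14 of these repair genes were higher and none lower, with a median of 0.45, against 0.41 in irradiated skin. None of them passed between the day-3 groups.

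Some matrix genes of the early wound rose, and the main dermal collagen did not pass. Of 23 tested genes of the provisional matrix 12 were higher and none lower with a median of 1.0 (5 without day-0 replicate 1 and 15 without replicate 2). Ptx3, a pentraxin of the hyaluronan matrix, was at 45.9, 71.0 and 53.5 FPKM, against 3.97 and 3.11 (3.65, SE 1.01, adjusted p = 0.01), and Tnc, tenascin C, at 71.2, 62.2 and 84.4, against 2.95 and 15.9 (3.16, SE 0.71), a call lost without day-0 replicate 1. Of 27 tested collagen genes 7 were higher and none lower (1 without day-0 replicate 1 and 18 without replicate 2). Col18a1, a basement membrane collagen, was at 48.5, 38.6 and 54.1, against 10.5 and 20.7 (1.59, SE 0.24), and passed in every alternative. Col1a1, the main collagen of dermis, was at 658, 1059 and 638, against 253 and 973, with overlapping groups (0.62, SE 0.56, adjusted p = 0.38). Its change was -0.35 without day-0 replicate 1 and 1.59 without replicate 2.

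Of 21 fibroblast markers 4 were higher and 2 lower (2 and 4 without day-0 replicate 1, 12 and 0 without replicate 2), so the direction of this list rested on which day-0 library was used. Crabp1, a retinoic acid binding protein of dermal fibroblasts, was at 109, 89.6 and 106 FPKM, against 13 and 13.5 (2.84, SE 0.44), where the day-0 libraries were alike. Myofibroblast and smooth muscle markers gave 2 higher and 5 lower of 14 tested (1 and 2 without day-0 replicate 1, 1 and 5 without replicate 2). Acta2, the smooth muscle actin of myofibroblasts and vessels, was at 114, 95 and 86.2, against 69.9 and 98.7, and did not pass (0.23, adjusted p = 0.63). Of 23 tested metalloproteinase and plasminogen system genes 13 were higher (4 without day-0 replicate 1 and 12 without replicate 2). Mmp9 was at 30.3, 87.8 and 59.8, against 6.01 and 4.63 (3.14, adjusted p = 0.027), and lost its call without either day-0 replicate, while Adam8 rose by 2.40 (SE 0.33).

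The TGF-β pathway, named in the title of the series, changed unevenly. Among the ligands, Tgfb1 (chr7:25687002-25705077, plus strand) was at 16.9, 19.3 and 20.2 FPKM in irradiated skin, 19.7 and 15.5 in control day-3 skin and 4.78 and 11.1 at day 0. Both day-3 groups lay above day 0 and overlapped each other: the change was 1.24 (SE 0.29, adjusted p = 0.0043) in irradiated and 1.14 (adjusted p = 0.014) in control day-3 skin, and the difference was 0.10 (adjusted p = 0.94). Without day-0 replicate 1 the change in irradiated skin was 0.71 and did not pass. Tgfb2 went down, at 1.86, 2.22 and 1.92, against 3.88 and 4.91 (-0.84, SE 0.18, adjusted p = 0.0021), and Tgfb3 did not pass at 5.12, 7.44 and 5.66, against 6.98 and 14.4 (-0.66, adjusted p = 0.072). Inhbb, the activin βB chain, was at 12.4, 11.1 and 14.8, against 4.02 and 3.37 (1.55, SE 0.22).

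Of the receptors, Tgfbr2 was at 45.4, 52.9 and 44.9 FPKM, against 17 and 40.2 (0.84, adjusted p = 0.037), a call lost in 8 alternatives, and Tgfbr1 at 7.92, 8.63 and 8.87, against 5.56 and 11.6 (0.05, adjusted p = 0.84), a value whose sign changed under 3 alternatives. The receptor-activated SMADs went opposite ways: Smad2 was at 12.9, 11.6 and 13.3, against 7.14 and 7.79 (0.68, SE 0.09, adjusted p = 0.00014), and Smad3 at 5.94, 7.15 and 6.36, against 9.75 and 13.2 (-0.73, SE 0.14, adjusted p = 0.001). Neither pair of groups overlapped. The shared partner Smad4 was at 15.5, 16.4 and 16.2, against 15 and 17.4 (-0.01, adjusted p = 0.94), and the inhibitor Smad7 at 3.23, 2.76 and 3.23, against 2.16 and 2.65 (0.26, adjusted p = 0.26). Over 35 ligands, receptors and SMADs 10 were higher and 5 lower with a median of 0.18 (6 and 5 without day-0 replicate 1, 14 and 5 without replicate 2), near the median of all genes. Of all tested genes 32.5% were higher and 17.6% lower, so having members on both sides does not set this list apart. Of 22 tested TGF-β target genes 9 were higher and none lower with a median of 0.84 (4 without day-0 replicate 1 and 14 without replicate 2). In the first list Gdf15 passed between the day-3 groups (0.92, adjusted p = 0.01).

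Other growth factors also had members on both sides of day 0. Of 39 tested ligands and receptors 9 were higher and 9 lower (6 and 7 without day-0 replicate 1, 11 and 7 without replicate 2), where 32.5% of all tested genes were higher and 17.6% lower. The EGF receptor ligand Epgn rose by 2.74 (SE 0.56). Igfbp3, which binds insulin-like growth factors, was at 37.0, 41.7 and 46.9 FPKM, against 92.5 and 95.8 (-1.16, SE 0.11), and the vascular growth factor Vegfb at 7.59, 8.87 and 8.19, against 24.1 and 17.9 (-1.24, SE 0.15). Pdgfb, a mitogen of pericytes and fibroblasts, was at 6.34, 6.13 and 7.56 FPKM in irradiated skin, at 12.6 and 10.2 in control day-3 skin and at 12.6 and 10.2 at day 0. It was lower in irradiated skin by 0.69 against day 0 (SE 0.16, adjusted p = 0.0032) and equally against control day-3 skin (adjusted p = 0.043). Endothelial markers gave 7 higher and 2 lower of 24 tested (3 and 2 without day-0 replicate 1, 11 and 1 without replicate 2), with the leukocyte adhesion molecule Icam1 higher by 1.69 (SE 0.28) and the tight junction protein Cldn5 lower, at 13.1, 11.5 and 11.4 FPKM, against 24.2 and 21 (-0.86, SE 0.10).

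**Figure D4:**
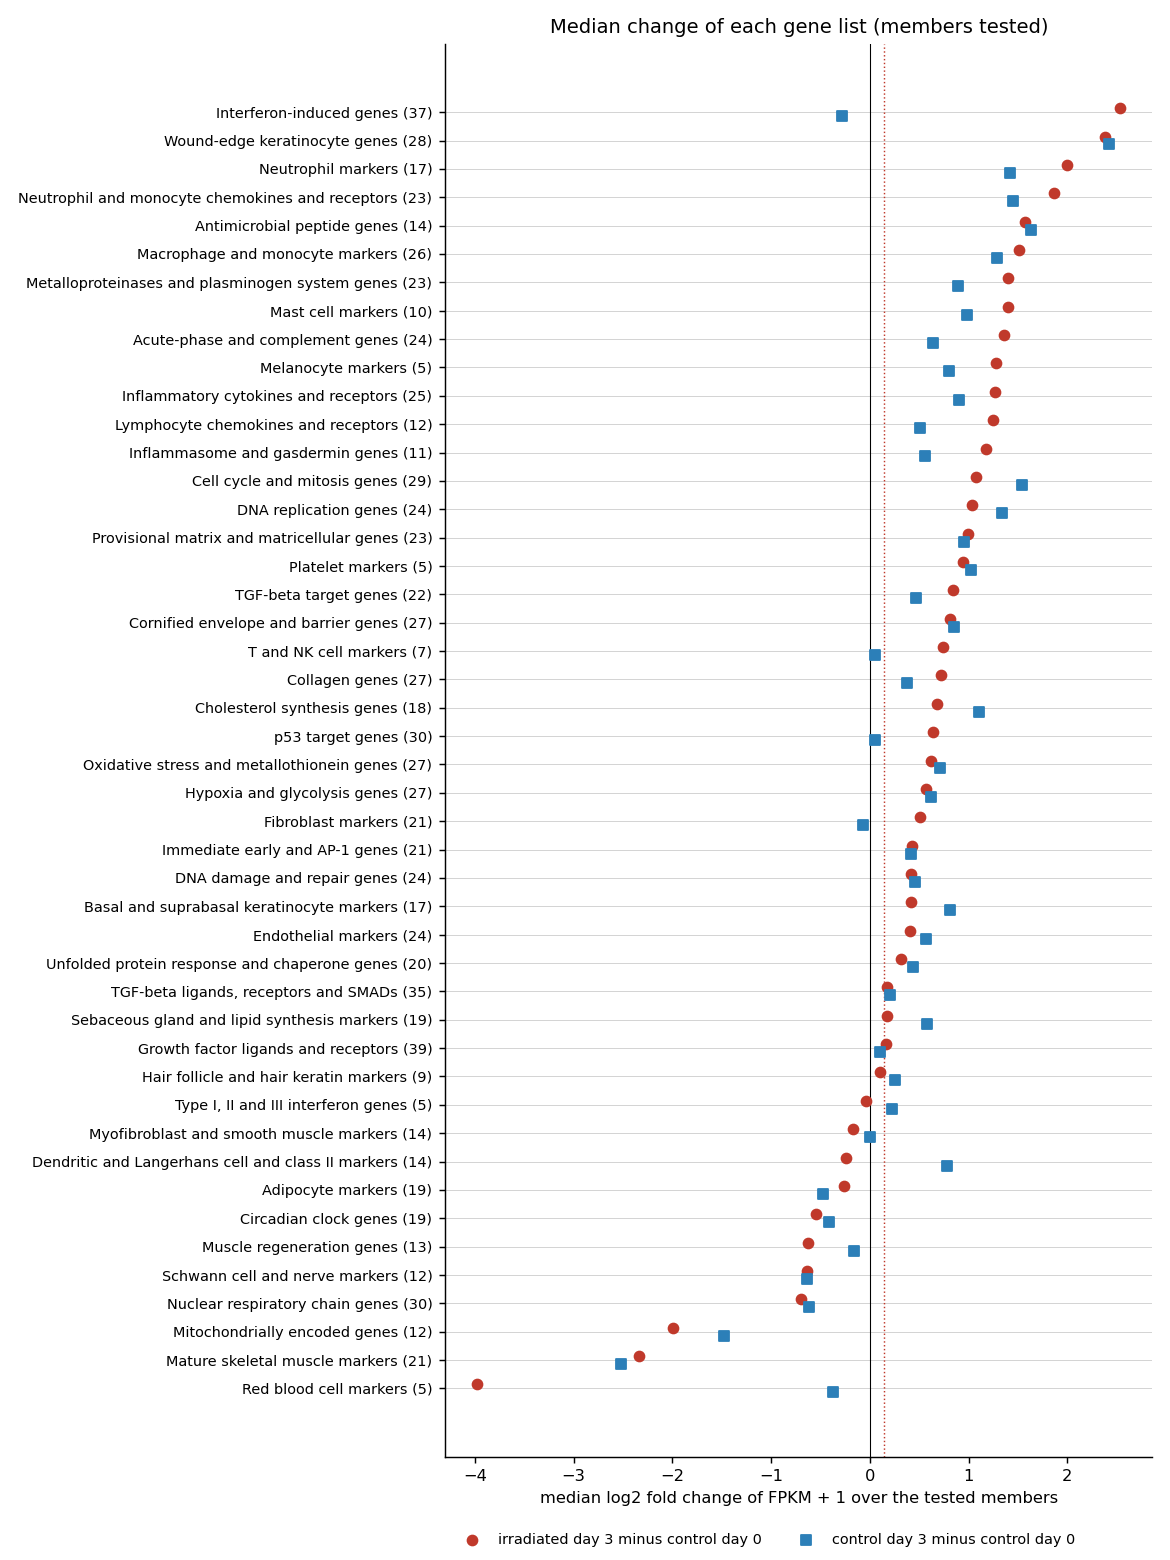
Median log2 fold change of FPKM + 1 over the tested members of each gene list (number tested in brackets) for irradiated day 3 (red circles) and control day 3 (blue squares), both against the same control day-0 libraries; the dotted line is the median of all tested genes, 0.14. Interferon-induced genes are at 2.54 and -0.28 in the 2 comparisons and red blood cell markers at -3.98 and -0.38, while wound-edge genes are at 2.38 and 2.42.

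Among the lower genes, skeletal muscle stood out in number. Mouse skin has a thin muscle layer, the panniculus carnosus, under the dermis. Of 21 tested markers of mature muscle 20 were lower and none higher with a median of -2.34 (19 lower without either day-0 replicate), and in control day-3 skin 20 were lower with a median of -2.52. Their summed FPKM was 3762, 6160 and 4406 in irradiated skin, 3860 and 5393 in control day-3 skin and 29930 and 24230 at day 0. The calcium buffer of fast fibres, Pvalb (chr15:78191114-78206400, minus strand), was at 78.1, 159 and 72.0 FPKM, against 2233 and 1348 at day 0 (-4.16, SE 0.60, adjusted p = 0.00018). Fast troponin T (Tnnt3) was at 454, 683 and 473, against 4050 and 2932 (-2.70, SE 0.33), and myoglobin (Mb) fell by 2.85. The 1 marker that did not pass was the myosin Myh2, at 18.9, 28.3 and 19.5, against 80.1 and 93.9 (-1.94, SE 0.81, adjusted p = 0.063). Irradiated replicate 2 had the highest muscle sum of the irradiated libraries, and replicate 1 of the day-0 libraries.

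Muscle regeneration genes, expressed in satellite cells and new fibres, gave 2 lower of 13 tested, and here the day-0 libraries decided the count: 12 were lower and none higher without day-0 replicate 1, and 1 was lower and 4 higher without replicate 2. The list summed to 248.2, 364.9 and 303.5 FPKM, against 739.8 and 1206.

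Respiratory genes were lower from both genomes. All 12 tested mitochondrially encoded genes were lower, with a median of -2.0 (12 without either day-0 replicate), and summed FPKM of the list was 30270, 31240 and 30050 in irradiated skin, 34800 and 45090 in control day-3 skin and 133600 and 78950 at day 0. mt-Co1, a subunit of cytochrome oxidase, was at 11768, 12362 and 11668 FPKM, against 45107 and 27932 (-1.57, SE 0.21). Of 30 nuclear respiratory chain genes 26 were lower and 1 higher with a median of -0.70 (22 and 1 without day-0 replicate 1, 28 and 1 without replicate 2). Cox8b and Cox7a1, oxidase subunits of striated muscle and brown fat, fell by 3.12 (SE 0.28) and 3.16. Cox6a1, the form of its subunit made outside muscle, was the higher one, at 279, 255 and 268 FPKM, against 192 and 180 (0.52, SE 0.10). Markers of muscle fell in the same libraries as these genes, and the part of muscle in them was not tested.

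Nerve, fat and gland markers gave fewer calls. Of 12 tested Schwann cell and nerve markers 5 were lower and none higher with a median of -0.63 (1 lower without day-0 replicate 1 and 4 without replicate 2). Cryab, a small heat shock protein of both nerve and muscle, fell by 2.18. Of 19 tested adipocyte markers 4 were lower and none higher (3 lower without either day-0 replicate), among them the insulin-responsive glucose transporter Slc2a4 (-1.86, SE 0.32), which muscle also makes. Sebaceous and lipid synthesis markers gave 2 lower and none higher of 19 tested (2 and 0 without day-0 replicate 1, 2 and 2 without replicate 2), with the desaturase Scd3 at 4.03, 6.20 and 5.17, against 43.6 and 45.1 (-2.90, SE 0.66). Of 31 hair follicle genes that the table lists, 9 passed the filter, with 1 higher and 1 lower (1 and 0 without day-0 replicate 1, 0 and 1 without replicate 2). Mt4, a metallothionein of stratified epithelium, was at 1.22, 2.66 and 1.97 FPKM, against 99.6 and 62.7 (-4.79, SE 1.08, adjusted p = 0.003).

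Red blood cell transcripts were low only in the irradiated libraries among the 3 groups compared. All 5 tested markers of 8 were lower than day 0 with a median of -3.98 (5 without day-0 replicate 1 and 4 without replicate 2). None passed between control day-3 and control day-0 skin (median -0.38). All 5 were lower in irradiated than in control day-3 skin (median -3.59), with no library left out. Hbb-bs, an adult β-globin (chr7:103826534-103828096, minus strand), was at 0.676, 4.76 and 0.934 FPKM in irradiated skin, 88.7 and 122 in control day-3 skin and 94.6 and 140 at day 0. The irradiated libraries were far below the 4 control libraries, which overlapped each other (-5.45 against day 0, SE 0.49, adjusted p = 1.5e-05). The α-globin Hba-a1 was at 1.24, 2.73 and 0.631, against 62.7 and 84.7 at day 0 (-4.95, SE 0.41). Alas2, the first enzyme of erythroid haem synthesis, was at 0.230, 0.313 and 0.370, against 1.13 and 1.69 (-0.88, adjusted p = 0.0078). Like Hbb-bt and Hba-a2, it stayed under 1 FPKM in every irradiated library. These genes passed the filter on low values only through the day-0 libraries, so the direction of their change from day 0 was fixed by it. The list median of -3.98 is the value of Hbb-bt. The globin genes come in near-identical copies, so the split between Hba-a1 and Hba-a2 and between Hbb-bs and Hbb-bt is uncertain, while both members of each pair were lower. In irradiated skin Hbb-bs was at 0.689 and 0.0939 FPKM at day 6 and at 43.1, 30.8 and 25.9 at day 9.

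**Figure D5:**
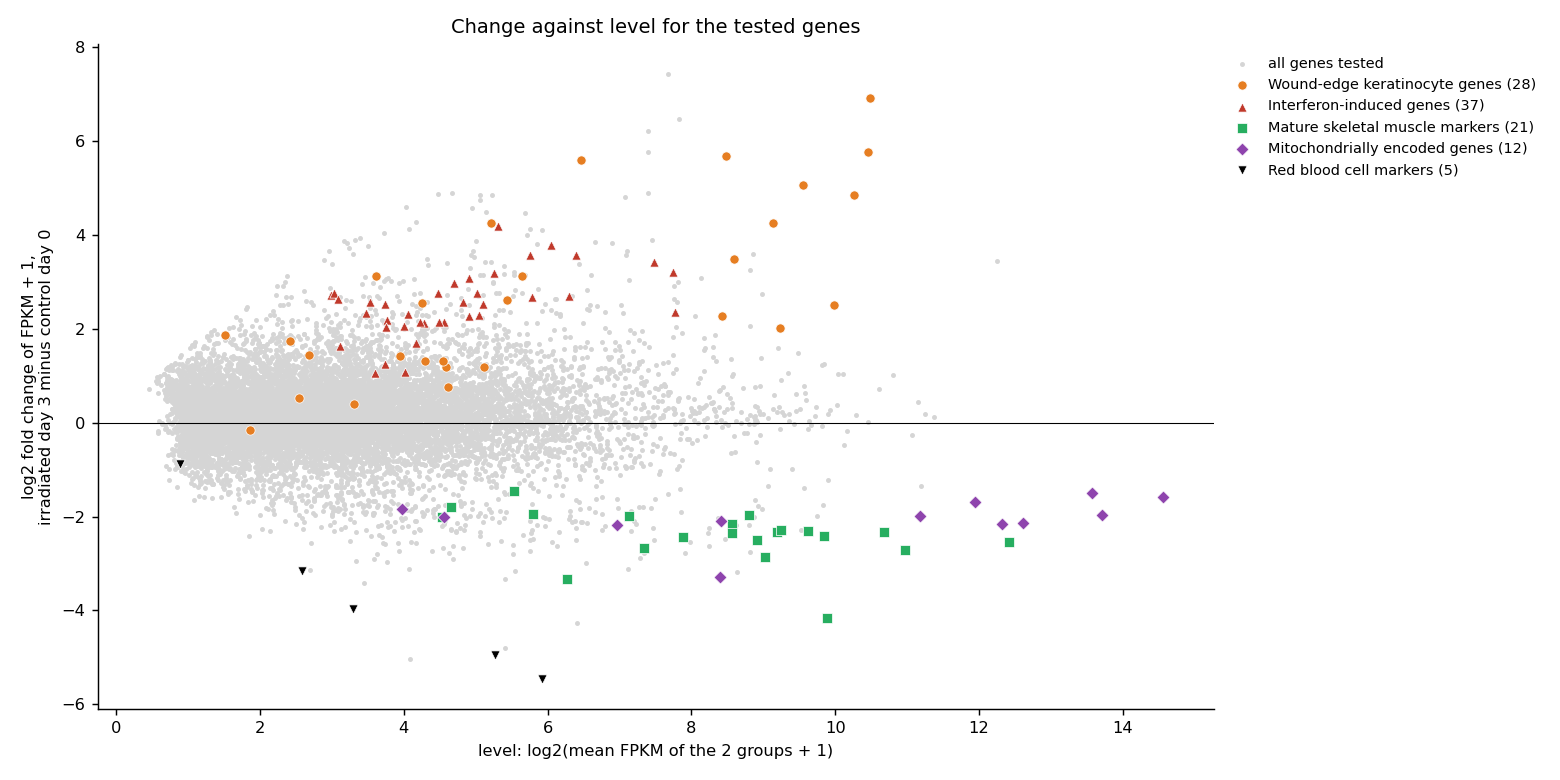
Log2 fold change of FPKM + 1, irradiated day 3 minus control day 0 (y axis), against level, the log2 of mean FPKM + 1 over both groups (x axis), for the 14095 tested genes with 5 gene lists marked. Wound-edge and interferon-induced genes lie above 0 except Itgb6, and the 21 muscle, 12 mitochondrially encoded and 5 red blood cell genes all lie below it.

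Metabolic and stress genes completed the comparison. Of 27 hypoxia and glycolysis genes 15 were higher and 2 lower (13 and 1 without day-0 replicate 1, 11 and 3 without replicate 2). Glycolytic isoforms of most tissues rose: Pgam1 was at 159, 160 and 160 FPKM, against 27.6 and 31.3 (2.40, SE 0.18, adjusted p = 1.1e-05), and Eno1 rose by 2.34 (SE 0.18). Those abundant in muscle fell, with Aldoa at 329, 393 and 313, against 1565 and 1184 (-1.98, SE 0.16), and the muscle phosphoglycerate mutase Pgam2 lower by 3.17. The glucose transporter Slc2a1 rose by 2.08 (SE 0.24) and Hif1a, the oxygen-regulated factor, by 1.83 (SE 0.33). Control day-3 skin had changes of 2.34 for Pgam1, 2.40 for Eno1 and 2.41 for Slc2a1.

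Hmox1, which breaks down haem, was at 308, 438 and 393 FPKM in irradiated skin, 246 and 171 in control day-3 skin and 53.3 and 74.0 at day 0 (2.56, SE 0.28, from day 0). Its 3 groups did not overlap, but the difference of 0.87 between the day-3 groups did not pass (adjusted p = 0.18). Of 27 tested oxidative stress and metallothionein genes 12 were higher and 3 lower (8 and 3 without day-0 replicate 1, 9 and 1 without replicate 2). Of 18 tested cholesterol synthesis genes 10 were higher and none lower with a median of 0.68 (7 without day-0 replicate 1 and 6 without replicate 2), led by squalene epoxidase, Sqle (1.49, SE 0.26). In control day-3 skin 18 were higher with a median of 1.11, and none of these genes passed between the day-3 groups. Of 20 unfolded protein response and chaperone genes 9 were higher and 4 lower (7 and 4 without day-0 replicate 1, 9 and 3 without replicate 2), with the small heat shock protein Hspb1 at 245, 201 and 224, against 915 and 533 (-1.65, SE 0.22). Of 21 immediate early and AP-1 genes 5 were higher and 2 lower (2 and 2 without day-0 replicate 1, 3 and 1 without replicate 2), but 2 were higher and 3 lower with median-of-ratios scaling, and 3 and 3 in quantile-normalized values.

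Of 19 circadian clock genes 3 were higher and 10 lower (1 and 7 without day-0 replicate 1, 4 and 7 without replicate 2). The repressor Nr1d1 was at 7.10, 5.80 and 9.17 FPKM in irradiated skin, 11.5 and 9.13 in control day-3 skin and 34.6 and 39.0 at day 0 (-2.19, SE 0.22, adjusted p = 2.2e-05), and Cry1, a repressor of another arm of the clock, rose by 0.83 (SE 0.12). The labels give no hour of sampling, and the part of the hour in these changes was not tested.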

How the data were processed

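RNA was extracted with TRIzol and a column kit, made into Smart-Seq2 libraries (full-length cDNA from little RNA) and sequenced in paired ends on a NovaSeq, per the labels' protocols. Reads were aligned to mm10 with HISAT2 2.2.1, per the submitters' processing notes. Neither the counting tool nor its annotation is given in the sources used here. The authors deposited FPKM per gene for 17 libraries, with no counts. Multiplied by exon lengths of GENCODE M21, found for 34067 genes, the commonest low FPKM gave the value of 1 fragment and so the total each library was scaled to. With these totals, 31475 genes came out as whole fragments (within 0.01) in all libraries.

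The deposited FPKM were analysed as log2(FPKM + 1), which understates changes of low genes. limma 3.58.1 (limma-trend, R 4.3.3, and data.table, version 1.17.8) was fitted with 1 mean per group to all 17 libraries, and adjusted p under 0.05 over the 14095 tested genes passed (Benjamini-Hochberg). Every adjusted p in the text comes from this fit. The scripts were tested on simulated data. The 47 gene lists got no set test, only counts and medians beside those of all genes. The comparison, the lists and the tests were chosen with earlier results of these data known. Python 3.11.15 (pandas 2.3.3, numpy 2.4.6, matplotlib 3.10.9) made lists and figures. Promoter windows came from RefSeq for 10058 of 14093 symbols.

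Genes were named by a rule: the 15 highest and 15 lowest protein-coding changes that passed with a mean of at least 5 FPKM in the higher group and no overlap, up to 5 passing members per list, 20 TGF-β, SMAD, p53 and wound genes, and up to 8 that also passed between the day-3 groups. Outside it, chosen after their values were seen, were Irf1, Irf7, Oas2, Il1b, H2-Aa, Trp53inp1, Bax, Cenpa, Cenpf, Nusap1, Kif23, Igfbp3, Vegfb, Pdgfb, Myh2, mt-Co1, Cox6a1, Hif1a, Cry1 and the genes of the last part of the closing section. A few genes of this rule are not reported here. Alternatives were pseudocounts of 0.1 and 5, no filter, a minimum FPKM of 5, median-of-ratios and quantile scaling, FPKM rescaled to nuclear genes, a fit of the compared groups only, a replicate block, array weights, robust variances, a fold threshold of 1, each replicate left out, and, chosen after seeing the data, limma-voom on recovered fragments.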

Additional observations from a re-analysis of the deposited data

Results flagged for a closer look

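The changes from day 0 in irradiated and in control day-3 skin differed, by the direct limma comparison of irradiated minus control day-3 skin, in 17 of the genes named by the rule. Genes named outside the rule that also passed it, such as Cenpa, Nusap1, Kif23, Pdgfb and Psmb10, are not counted here. Among interferon-induced genes the difference was 3.93 for Mx1, 4.04 for Ifit2, 4.49 for Ifit1, 4.38 for Rsad2 and 4.41 for Ifit3 on the log2 scale, and among chemokines 4.14 for Cxcl10 and 2.5 for Ccl12. The IgG receptor Fcgr1 differed by 1.89. Red blood cell transcripts were lower in irradiated skin, with differences of -5.31 for Hbb-bs, -4.56 for Hba-a1, -3.59 for Hbb-bt, -2.78 for Hba-a2 and -1.02 for Alas2. The p53 targets differed by 1.19 for Dcxr, 1.01 for Cdkn1a, 0.95 for Ccng1 and 0.92 for Gdf15. In each of these 17 genes all 3 irradiated libraries lay on the same side of both control day-3 libraries. The genes were picked for passing this comparison, so their separation adds no further evidence. The fitted globin values rest on irradiated levels near the pseudocount and are no bounds.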

How the results depend on the processing

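The 7063 calls against day 0 ranged over 6946 and 7110 with pseudocounts of 5 and 0.1, 7309 without a filter, 5060 at a minimum of 5 FPKM, 6102 in the compared groups only, 5605 with array weights and 6080 with limma-voom, and fell to 2074 with a fold threshold of 1. Leaving out 1 library gave 4914 (without day-0 replicate 1) to 6775. Control day 3 against day 0 gave 2382 calls in the compared groups only, 1614 with the fold threshold and 3487 to 5761 with 1 library left out, and irradiated against control day 3 gave 525, 163 and 28 (without control day-3 replicate 3) to 241, and 1234 with array weights (652 higher and 582 lower). The libraries whose loss moved these counts by over 1.5 times were control day-3 replicate 1 (3487 and 137), and irradiated replicates 1 (162) and 2 (163) beside control day-3 replicate 3. The labels do not pair the libraries. Deviations of same-numbered irradiated day-3 and day-0 libraries correlated at 0.247 and 0.331, others at -0.331 to 0.17. With 2 day-0 libraries, deviations from their mean mirror each other, so each correlation has an opposite of the same size. These correlations therefore cannot decide whether libraries are paired. A replicate block gave 7035, 5290 and 219 calls in the 3 comparisons. Signs changed for Tgfbr1 (-0.094 with median-of-ratios, -0.12 with quantile scaling, -0.42 to 0.53 with 1 library left out), Smad4 (0.14 rescaled to nuclear genes, 0.019 with the block, -0.11 to 0.0876 with 1 left out), Col1a1 (-0.35 to 1.59) and Acta2 (-0.016 to 0.48), and the cause was not tested. Of 210 called named genes 137 passed in every alternative, and 59 lost the call without day-0 replicate 1 and 24 without replicate 2. Of 47 list medians 1 changed sign with median-of-ratios, 3 with quantile and 1 with nuclear scaling, 2 without day-0 replicate 1 and 6 without replicate 2. With 2 day-0 libraries, no group had the 4 libraries needed to look for a library far from the rest.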

Other observations

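Further groups were formed from gene symbols after the values were seen and are described without a test of the group. Each count against day 0 is followed by its values without day-0 replicate 1 and without replicate 2, an alternative also chosen after seeing the data. Of 5 subunits of the immunoproteasome and its regulators, which cut proteins into peptides for presentation, 4 were higher in irradiated day-3 than in control day-0 skin (3 and 4) with a median log2 fold change of 1.10, and none differed in control day-3 skin at the adjusted threshold (median 0.29). Between the day-3 groups 1 of the 5 passed, Psmb10. It was at 59.9, 54.1 and 40.1 FPKM in irradiated skin, 20.6 and 18.2 in control day-3 skin and 16 and 19.3 at day 0, and differed between the day-3 groups by 1.35 (limma adjusted p = 0.01). The other 34 proteasome subunits gave 10 higher and none lower (4 higher and 4 lower without replicate 1, 21 and 0 without replicate 2) with a median of 0.15, near the 0.14 of all genes. Of 15 genes of class I presentation 11 were higher (8 and 10) with a median of 1.02, against 2 in control day-3 skin (median 0.15), and H2-T22, H2-T23 and H2-T24 passed between the day-3 groups. The peptide transporter subunit Tap1 was at 36.6, 34.4 and 24.5 FPKM, 12.3 and 11.4 in control day-3 skin and 10.6 and 11.5 at day 0 (1.43, SE 0.33), and the light chain B2m at 2374, 2744 and 2071, 1430 and 1330 in control day-3 skin and 1023 and 1361 at day 0 (1.01, SE 0.26). Schlafen genes, of a family with antiviral members, gave 6 higher of 7 (5 and 6) with a median of 2.28, against 2 in control day-3 skin, and Slfn3, Slfn5, Slfn8 and Slfn9 passed between the day-3 groups.

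Of 9 epidermal kallikreins 8 were higher in irradiated day-3 skin (8 and 6, median 1.88) and 9 in control day-3 skin (median 2.39), and of 12 Sprr genes 9 were higher in each (medians 3.88 and 4.26, with 8 in irradiated skin without either day-0 replicate). Of 17 tRNA synthetases 11 were higher in irradiated and 13 in control day-3 skin (medians 0.45 and 0.52), and in irradiated skin 8 were higher and 1 lower without day-0 replicate 1 and 16 and 0 without replicate 2. Of 78 ribosomal protein genes 15 were higher and 3 lower (6 and 1 without day-0 replicate 1, 2 and 3 without replicate 2), with a median of 0.15. Differences between irradiated and control day-3 skin were not called for any kallikrein, Sprr, tRNA synthetase or ribosomal protein gene. Sprr2a1, Sprr2a3, Sprr2b, Sprr2e, Sprr2f, Sprr2i, Sprr2k, Klk12 and Klk13 were under 1 FPKM in both day-0 libraries, as were Slfn3 and H2-Q10 of the groups above. They passed the filter on low values only through the irradiated libraries, so the direction of their change from day 0 was largely set by it.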
